A study of Mus musculus with 96 samples.

Results

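Rpl11, Rpl5, Rpl26, Rpl35a and Rps19 are 5 ribosomal protein genes of the kind that carry single-copy mutations in Diamond-Blackfan anaemia, a congenital failure of red cell production. They were taken by name, as Rpl11, its partner Rpl5 and 3 further genes linked to the disorder, out of 24321 gene symbols in the deposited table, and they were set against the 74 other cytoplasmic ribosomal protein genes measured. The values come from 96 single cells of mouse marrow. GEO's labels call all of them erythroid precursor, with the genotype Rpl11 +/lox and the strain C57BL/6, so each carries 1 unaltered Rpl11 allele and 1 allele with lox sites, whose deletion the labels do not state. The series describes them as running from burst-forming progenitors (BFU-E) to basophilic erythroblasts of Rpl11 haploinsufficient mice. The labels name no Cre driver, no age, no number of animals and no wild-type cells. The data therefore hold no measure of Rpl11 against a normal dose, and the cells were treated as 1 sample with no test.

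The ribosome joins a small and a large subunit, and most of its proteins are needed in equal number. Rpl11 and Rpl5 (uL5 and uL18) bind the 5S ribosomal RNA and enter the large subunit with it as a 5S particle. When subunit assembly is disturbed, the unassembled 5S particle binds Mdm2, the ubiquitin ligase that keeps p53 low. Rpl26 and Rpl35a are other proteins of the large subunit, and Rps19, the most often mutated gene of Diamond-Blackfan anaemia, is a protein of the small subunit. Red cell precursors make globin in bulk, and ribosomal protein messages decline as they mature.

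Messages of ribosomal proteins are known for a terminal oligopyrimidine tract, a run of C and T at the start that places their translation under growth control. To look for such runs, 30 bases of the transcribed strand near the first annotated start of each member are printed from RefSeq (GRCm38.p6), 5′ to 3′. Capitals mark the longest run of C and T within 50 bases after the start.
Rpl11: acggggccggaagTCTCCCTCTCTCTTCCT
Rpl5: tgcgcatgcgtacgtgactccggTCTTTTT
Rpl26: cggaagtcgcgtgtagTTCTCTTTCCTTTT
Rpl35a: ccgcgcggcggggcttgCCTTCCTCTTTCC
Rps19: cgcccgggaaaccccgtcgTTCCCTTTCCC
Rpl11 (chr4:136053364-136053393, minus strand) had the longest run of the 5, 17 bases, beginning 14 bases into the annotated transcript. Rpl26 (chr11:68901571-68901600, plus strand) had 14 bases and Rpl35a (chr16:33056460-33056489, plus strand) had 13. The runs of Rps19 (chr7:24884612-24884641, plus strand), 11 bases, and Rpl5 (chr5:107900548-107900577, plus strand), 7 bases, reached the end of the window searched and may be longer. No marked run began at the annotated start itself. The first base was 22 for Rpl26, 25 for Rpl35a, 40 for Rps19 and 44 for Rpl5, so a tract at the start is not shown for any member. A run of at least 7 bases was present in 27.4% of 27025 genes and in 72.4% of the 58 ribosomal protein genes in the table, against 31.9% and 10.3% on the other strand. For at least 11 bases the shares were 4.91% and 36.2%, against 6.42% and 1.72% on the other strand. The annotated starts may lie upstream of the start used in these cells, so the runs are descriptions of sequence and not sites.

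At least 1000 genes at 1 RPKM (reads per kilobase of transcript and per 1000000 mapped reads) were listed in 69 cells, and 27 cells fell below that number. Of the 69, 12 went against the erythroid label, since they carried at least 3 markers and 50% of the markers of a non-erythroid list at 10 RPKM, most often a neutrophil or a monocyte or macrophage list. The remaining 57 cells were kept, with a median of 13 of 17 erythroblast markers and 8 of 10 late progenitor markers at 10 RPKM. Cells 11, 68 and 77 were kept by the rule but had at most 3 of the 17 erythroblast markers, and cells 11 and 77 listed the neutrophil gene Mpo at 7333 and 11336 RPKM. All 3 cells fell in cluster 1, described next, and without them its median levels were 391 RPKM for Rpl11, 350 for Rpl5, 878 for Rpl26, 492 for Rpl35a and 1649 for Rps19. Clusters were built without the genes listed or named as ribosomal protein, marker or globin genes, so near-identical copies under other names could remain. The clusters were numbered by median Hba-a1, the alpha-globin message. Cluster 1 held 18 cells with a median Hba-a1 of 102838 RPKM, cluster 2 held 16 cells at 370287 and cluster 3 held 23 cells at 473736. Estimated depth in the kept cells had a median of 6911 in units of 1000 reads (lowest 1480, highest 11629). The medians of clusters 1, 2 and 3 were 5734, 7161 and 7505. The number of genes at 1 RPKM went the other way, with medians of 3610, 2028 and 1242 per cell in clusters 1, 2 and 3. The lowest cells had 2779, 1551 and 1003 genes, so cluster 3 reached down to the gene minimum. A count of 3 reads on a message of 500 bases was worth a median of 0.868 RPKM.

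Rps19 was the most abundant of the 5 members and Rpl5 the least. A gene counts as detected in a cell at 1 RPKM. Rps19 was detected in 52 of 57 kept cells, with a lowest value of 0, a median of 470 and a highest of 3388 RPKM, and its median ranked 4 among the 79 ribosomal protein genes. Rpl26 was detected in 48 cells with a median of 184 RPKM (0 to 1599, rank 34). Rpl35a was detected in 49 cells with a median of 156 RPKM (0 to 1564, rank 42). Rps19 thus stood near the top of the family, and Rpl26 and Rpl35a in its middle.

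Rpl11, the gene with the altered allele, was detected in 40 of 57 kept cells (70.2%, 95% Clopper-Pearson interval 56.6 to 81.6, counting error only). Its level ran from 0 to 983 RPKM with a median of 71.6, rank 69 of 79. Rpl5 was detected in 41 cells (71.9%, 58.5 to 83.0), from 0 to 1027 RPKM with a median of 46.9, rank 76. Over all kept cells together, zeros included, both partners of the 5S RNA were thus near the lower end of the family. No wild-type cell is present to say whether Rpl11 ranks there at normal dose.

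Relative to the mean of the 74 other ribosomal protein genes in the same cell, Rpl11 and Rpl5 lay below, Rpl26 and Rpl35a near, and Rps19 above that mean. The ratio uses cells with the member above 0 and a mean of at least 10 RPKM, and it cancels the depth of the cell. The median log2 ratio of Rpl11 was −1.06 ± 2.09 (SD over 42 cells), a linear ratio of 0.478, and 38 of 42 cells were below the mean. Rpl5 had a median of −1.30 ± 1.84 (SD over 42 cells) and was below in 40 of 42. Rpl26 had −0.13 ± 1.92 (48 cells) and Rpl35a −0.30 ± 1.46 (48 cells), with 21 and 18 cells above the mean. Rps19 had 1.23 ± 1.29 (51 cells), a linear ratio of 2.35, and was above the mean in 48 of 51. The signs for Rpl26 and Rpl35a depend on the processing. With values summed over transcripts the Rpl35a median became 1.06, since its 3 transcripts enter together and their values differ by no more than 1.09-fold, and with the geometric mean as denominator that of Rpl26 became 0.41.

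**Figure D1:**
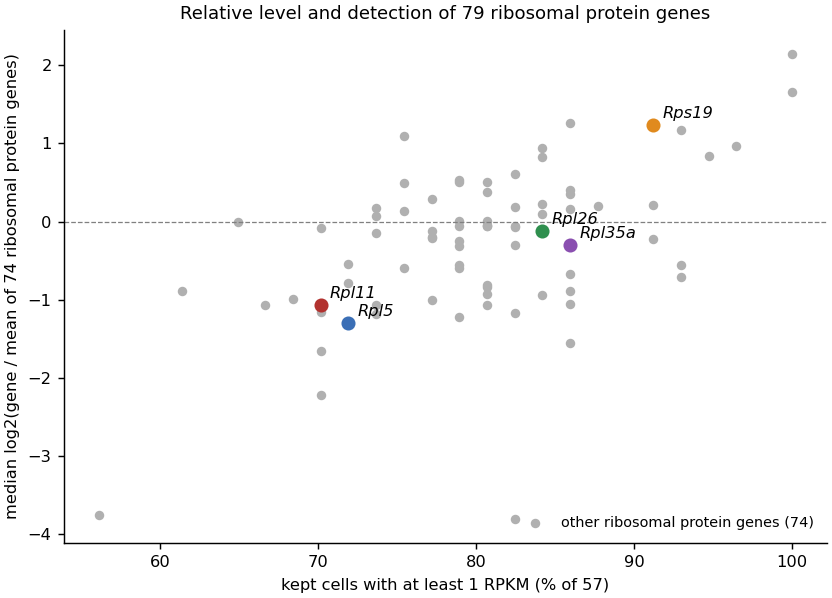
Each point is 1 of 79 ribosomal protein genes, with its detection as a percent of the 57 kept cells on the x axis and the median log2 ratio to the mean of the 74 other ribosomal protein genes on the y axis. Rpl11 and Rpl5 sit low and left at −1.06 and −1.30, and Rps19 sits high at 1.23.

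The spread of the Rpl11 and Rpl5 ratios was smaller in cluster 1 than in clusters 2 and 3. The mean of the other ribosomal protein genes had a median of 848 RPKM there, against 189 in cluster 2 and 48.0 in cluster 3. In cluster 1 every member was detected in 18 of 18 cells, and the ratio of Rpl11 was −0.94 ± 0.63 (SD) and that of Rpl5 −1.04 ± 0.60. By these medians Rpl11 ranked 63rd and Rpl5 68th of 79 genes. Without cells 11, 68 and 77, Rpl11 ranked 56th and Rpl5 73rd. Over the 18 cells of cluster 1, Rpl26 held the narrowest spread of the members, 0.04 ± 0.35, and Rps19 was next at 1.06 ± 0.39. Ordered from the smallest SD, Rpl26 stood 23rd of 79 genes, Rps19 36th, Rpl5 71st, Rpl11 72nd and Rpl35a 77th. The sample descriptions give 3 run codes, while the titles give 1 code to all cells, so what the codes stand for is uncertain, and each statement by run code rests on the descriptions. By these codes, 1 of the 3 gave another Rpl11 value over all clusters, −0.44 in 10 cells, against −1.08 in 15 cells and −1.15 in 17 cells of the others.

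All 5 members fell from cluster 1 to cluster 2 and from cluster 2 to cluster 3, while alpha-globin was higher from cluster to cluster. A fall was called when mean log2(RPKM + 1) was lower by at least 1, with the same sign within every run code that had 3 cells or more of each cluster. Of 2169 genes kept out of clustering, 71% were called lower in cluster 3 than in cluster 1, 57.1% in cluster 2 than in cluster 1 and 31.4% in cluster 3 than in cluster 2. Rpl11 ran from 204 to 983 RPKM in the 18 cells of cluster 1 with a median of 406. In the 16 cells of cluster 2 its median was 67.6 (0 to 306), and in cluster 3 it was detected in 9 of 23 cells, with a median of 0 and a highest value of 143. Clusters 1 and 3 did not overlap for Rpl11, as for 37 of the 79 ribosomal protein genes and for 0.968% of the genes kept out of clustering, while cluster 2 overlapped both.

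Rpl5 ran from 85.8 to 1027 RPKM in cluster 1 with a median of 357. Its median was 41.6 in cluster 2 (0 to 263) and 0 in cluster 3 (0 to 109, detected in 9 of 23 cells). The highest cells of cluster 3 thus overlapped the lowest of cluster 1. Rpl26 had medians of 879 RPKM (393 to 1599), 187 (6.11 to 676) and 3.12 (0 to 293) in clusters 1, 2 and 3. It was the other member among those 37 genes without overlap between clusters 1 and 3. The reads of Rpl26 cannot be told from those of Gm15772, a gene not left out of clustering by name. The separation of Rpl26 may therefore not be independent of the clusters.

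Rpl35a had medians of 575 (89.0 to 1564), 85.7 (0 to 556) and 49.0 RPKM (0 to 289) in clusters 1, 2 and 3, and was detected in 16 of 23 cells of cluster 3. Rps19 had medians of 1736 (835 to 3388), 448 (207 to 1674) and 111 RPKM (0 to 932), and was detected in 18 of 23 cells of cluster 3. For both genes the upper cells of cluster 3 overlapped the lower cells of cluster 1.

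**Figure D2:**
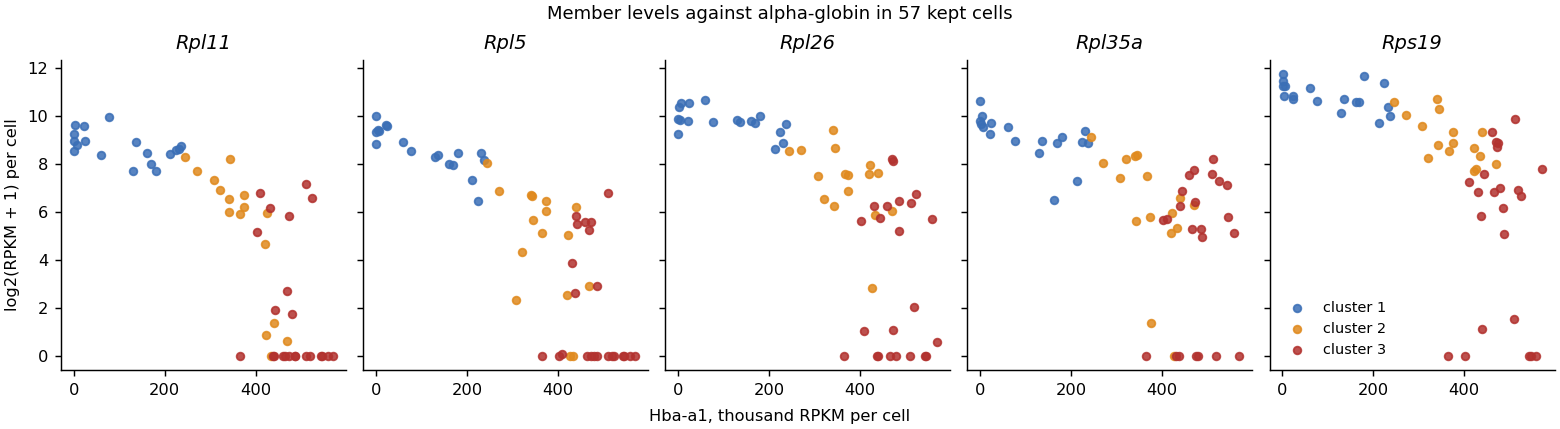
Each point is 1 of 57 kept cells, with Hba-a1 in units of 1000 RPKM on the x axis and the member's log2(RPKM + 1) on the y axis, coloured by cluster. All 5 members are high in the 18 cells of cluster 1, and in cluster 3 many cells lie at 0, 14 of 23 for Rpl11 and 5 of 23 for Rps19.

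Mean log2 levels of Rpl11 were 8.73 ± 0.62 in cluster 1 and 1.92 ± 2.77 in cluster 3 (SD over cells), a difference of −6.81. The differences were −6.69 for Rpl5, −6.50 for Rpl26, −5.51 for Rps19 and −4.60 for Rpl35a. The median was −6.21 over the 79 ribosomal protein genes and −2.18 over the genes kept out of clustering. On this scale a gene cannot fall by more than its mean in cluster 1, so genes low there can only show small falls. Ordered from the most negative of the 79, Rpl11 was 16th, Rpl5 21st, Rpl26 25th, Rps19 58th and Rpl35a 73rd. Without cells 11, 68 and 77 and with the clusters held, the Rpl11 difference was −6.77. With clusters rebuilt without them, the differences were −6.74 for Rpl11, −6.14 for Rpl5, −5.96 for Rpl26, −6.10 for Rps19 and −3.95 for Rpl35a. With globin genes left out of the scaling and the clusters held, they were −6.97, −6.80, −6.12, −4.85 and −3.96 in the same order. Within single run codes the Rpl11 difference ran from −7.73 to −6.54. With no minimum on genes per cell the cluster with the least alpha-globin was made mostly of poor cells (23 of 24 below 1000 genes), and the sign turned for all 5 members, to 1.30 for Rpl11.

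The intermediate steps differed among the members. From cluster 1 to cluster 2, Rpl5 fell by 3.92 on the log2 scale, Rpl11 by 3.53, Rpl35a by 2.88, Rpl26 by 2.57 and Rps19 by 1.78. Rps19 lost its call in that step with globin genes left out of the scaling, at −0.98. From cluster 2 to cluster 3, Rpl26 fell by 3.93, Rps19 by 3.73, Rpl11 by 3.28, Rpl5 by 2.77 and Rpl35a by 1.72. These are sizes with no test, since cells of 1 sample are not replicates. The steps also rest on the choice of 3 clusters. A split into 2, with clusters 2 and 3 as 1 group, separated the cells better (silhouette 0.442 against 0.301).

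Rpl35a changed its place within the family. Its mean log2 level ranked 52nd of 79 in cluster 1, 58th in cluster 2 and 13th in cluster 3. Its median ratio to the other ribosomal protein genes was −0.59 ± 0.75 (SD, 18 cells) in cluster 1, −0.83 ± 1.81 (15 cells) in cluster 2 and 1.04 ± 0.84 (15 cells) in cluster 3. In cluster 3, 12 of 15 cells were above the mean, while 7 further cells listed it at 0. The cluster 3 median was 0.65, 1.19 and 1.08 in the 3 run codes. Its SD there was the 3rd smallest of 79 genes. By rank of mean log2 level the other members stayed within 10 places. Rps19 was at 4th, 3rd and 7th, Rpl26 at 30th, 35th and 39th, Rpl11 at 64th, 67th and 74th, and Rpl5 at 71st, 75th and 75th. The median ratio leaves out cells at 0 and gave another order. By it Rpl35a was 52nd, 56th and 9th, Rpl26 34th, 34th and 56th, and Rpl11 63rd, 62nd and 51st. Rpl5 was 68th, 76th and 72nd, and Rps19 4th, 3rd and 6th. In cluster 3 the Rpl11 ratio rests on 9 cells, so the direction of its move within the family is not settled.

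**Figure D3:**
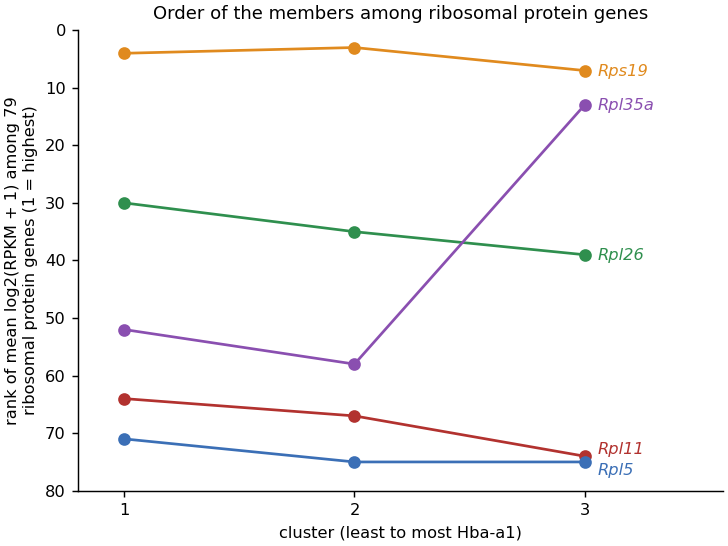
Lines give the rank of each member's mean log2(RPKM + 1) among 79 ribosomal protein genes (1 is the highest) in clusters 1, 2 and 3, ordered by median Hba-a1. Rpl35a goes from rank 58 in cluster 2 to rank 13 in cluster 3, while Rpl11 and Rpl5 end at 74 and 75.

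**Figure D4:**
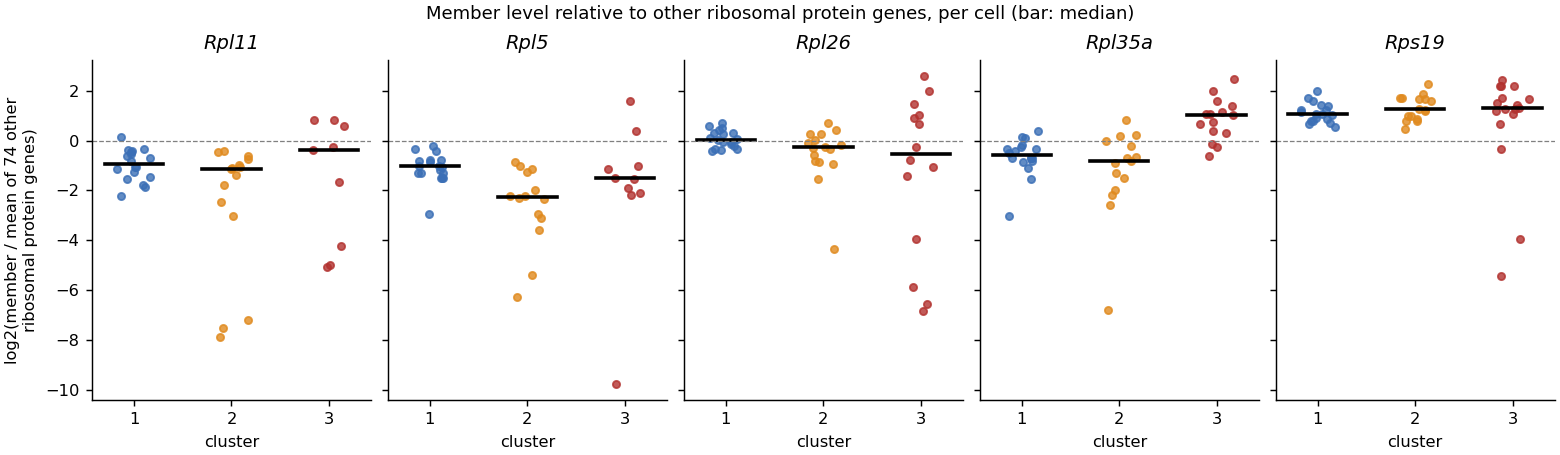
Each point is 1 kept cell with the member above 0 and a ribosomal protein mean of at least 10 RPKM, placed by cluster on the x axis and by log2 ratio to the mean of the 74 other ribosomal protein genes on the y axis, with a bar at the median. Rps19 lies above 0 in all 18 cells of cluster 1, Rpl5 below 0 in all 18, and Rpl35a moves from −0.59 to 1.04 between clusters 1 and 3.

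Rpl11 and Rpl5 had similar levels by the median over cells, with a wide spread from cell to cell. Cells with either partner at 0 were left out. The log2 ratio of Rpl11 to Rpl5 had a median of 0.22 ± 2.75 (SD), from −5.52 to 10.6, over the 37 kept cells with both above 0. Rpl11 was the higher in 22 and the lower in 15. In cluster 1 the ratio was 0.09 ± 0.85 over 18 cells, from −1.05 to 2.13, with Rpl11 the higher in 10. The medians were 0.24 in 14 cells of cluster 2 and 0.25 in 5 cells of cluster 3. By run code the median was 1.26 in 10 cells, 0.19 in 14 and −0.18 in 13, so its sign is not settled. Rpl11 was lower than Rps19 in 41 of 41 cells, with a median log2 ratio of −2.47 ± 2.10, and lower than Rpl26 in 35 of 41 and than Rpl35a in 30 of 38. Most median log2 ratios between members were smaller than their spread over cells. These included Rpl11 to Rpl5, Rpl11 to Rpl26 (−0.90 ± 2.55, 41 cells) and Rpl11 to Rpl35a (−0.72 ± 2.39, 38 cells). Rpl26 to Rpl35a (0.57 ± 1.94, 43 cells) was also among them. The exceptions were Rpl11 to Rps19 and Rpl5 to Rpl26 (−1.54 ± 1.37, 39 cells).

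Once the level of the other ribosomal proteins was taken out, no shared movement of the partners was seen over cells. Over 57 kept cells log2 levels of Rpl11 and Rpl5 had a Pearson correlation of 0.689, with a median of 0.703 over all pairs of the 79 ribosomal protein genes. After the mean log2 level of the other ribosomal protein genes was subtracted it was −0.036. Of the 57 cells, 17 were without detected Rpl11 and 16 without detected Rpl5. In the 18 cells of cluster 1, where no member was at 0, log2 ratios of Rpl11 and Rpl5 had a correlation of 0.049, and the median over 3081 pairs of ribosomal protein genes was −0.006. Among the members the highest value there was 0.38, for Rpl5 with Rpl35a, and the lowest was −0.49, for Rpl5 with Rps19. Correlations are descriptions over cells that share 1 sample, library preparation and a common denominator. With undetected values in the 57 cells and only 18 cells in cluster 1, they cannot exclude a moderate shared movement.

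**Figure D5:**
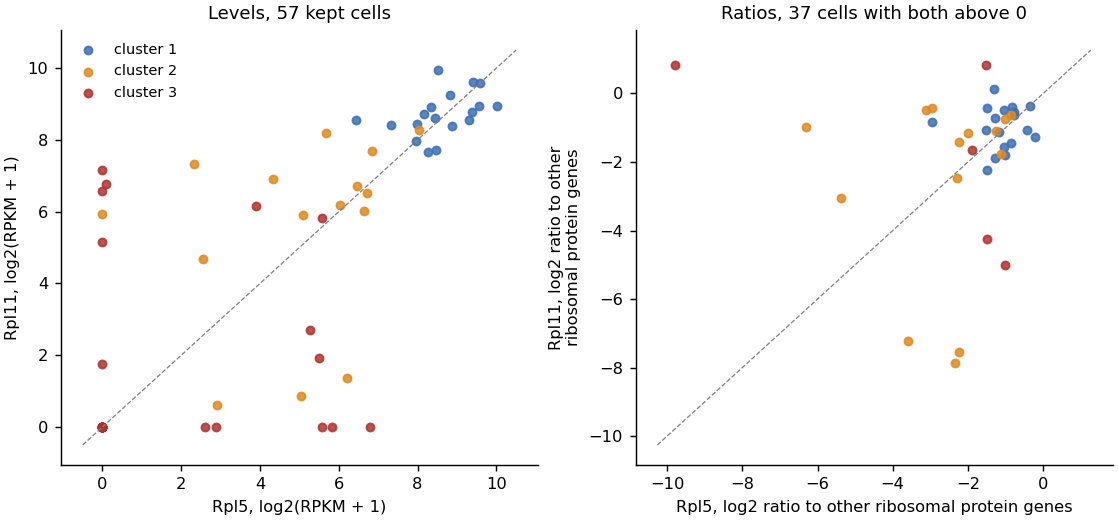
Left, log2(RPKM + 1) of Rpl5 (x axis) and Rpl11 (y axis) in 57 kept cells, and right, their log2 ratios to the other ribosomal protein genes in the 37 cells with both above 0, coloured by cluster, with a dashed line of equality. The 18 cells of cluster 1 form a group near the line, and cells of clusters 2 and 3 scatter to either side and along the axes.

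Joint detection of the members was least frequent in the globin-rich cells of cluster 3, which also listed the fewest genes. All 5 were detected in 32 of 57 kept cells, in 18 of 18 cells of cluster 1, 12 of 16 of cluster 2 and 2 of 23 of cluster 3. Rpl11 and Rpl5 were both detected in 34 kept cells, Rpl11 alone of the pair in 6, Rpl5 alone in 7, and neither in 10. Among the 39 cells whose other ribosomal protein genes averaged at least 100 RPKM, Rpl5 was not detected in 5, Rpl11 in 4, Rpl35a in 3, and Rpl26 and Rps19 in 1 each. The 4 cells without Rpl11 included cell 51, which listed Rpl11 at 0 beside Rpl5 at 46.9 and Rps19 at 646 RPKM, and where 3 reads on 500 bases were worth 0.694 RPKM. Cell 14 listed Rpl11 at 0.811 RPKM beside Rpl5 at 31.8. In cell 96 both partners were at 0 beside Rps19 at 419 RPKM. Cell 94 was the shallowest kept cell, at 1480 in units of 1000 reads, and listed all 5 members at 0. The reverse pattern, Rpl11 without Rpl5, was seen in cell 19 at 143 RPKM of Rpl11, cell 48 at 95.0 and cell 15 at 60.3. Other ribosomal protein genes were missing from the same cells, since of the 74 others 4 were at 0 in cell 51, 3 in cell 14, 12 in cell 96, 42 in cell 94, 10 in cell 19, 14 in cell 48 and 10 in cell 15. Over the 79 genes the number of these 39 cells without detection ran from 0 to 9 with a median of 2.

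Some values are uncertain because near-identical copies of ribosomal protein genes can share reads. The predicted gene Gm15772 followed Rpl26 with a Pearson correlation of 1.000 over 57 cells at 104% of its level (median), so the reads of both cannot be told apart. Ribosomal protein genes were left out of the clusters by name, so Gm15772 stayed among the genes split between clustering and background. Gm10653, Cand2, Gm6251 and Ccdc84, which followed Rps2, Rpl32 or Rps25 at 0.898 to 0.941, carry no such name either. Reads of ribosomal protein genes may thus have entered the clustering. The fall of Rpl26 between clusters may then not be independent of how they were built, and this was not tested. The pseudogene Rps19-ps3 followed Rps19 at 0.936 with a median of 3.01% of its level. RefSeq lists 13 pseudogenes named after Rps19, 6 each after Rpl26 and Rpl35a, 2 after Rpl5 and 0 after Rpl11.

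The 16 other Diamond-Blackfan ribosomal protein genes were detected in 42 to 55 of 57 kept cells and spanned the family. Rpl35 (median log2 ratio 1.18 ± 0.96, 53 cells) and Rps29 (0.97 ± 1.11, 54 cells) were the highest of them, below Rps19. Rps15a (−3.81 ± 1.14, 48 cells) and Rpl31 (−1.17 ± 1.54, 48 cells) were the lowest, and Rps15a was the lowest of all 79. All 16 were called lower in cluster 3 than in cluster 1, with a median difference of −5.82, as were 79 of 79 ribosomal protein genes. Among the genes kept out of clustering, 71% were called lower. Gata1, the erythroid transcription factor whose mutation gives a related anaemia, had a median of 84.6 RPKM and was detected in 44 of 57 cells. Of the 4 non-ribosomal genes of the list, 2 were called lower in cluster 3 than in cluster 1, beside the same 71%. They were Gata1, by 3.14 on the log2 scale, and the Rps26 chaperone gene Tsr2. Tsr2 was sparse, detected in 5 of 18 cells of cluster 1 and 0 of 23 of cluster 3, with a median of 0 in both. Without cells 11, 68 and 77 in cluster 1, the Gata1 difference was −4.38.

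Genes that act on the 5S particle were sparse. Of 8 assembly genes, 3 were detected in at least 25% of kept cells, and 5 of 8 were called lower in cluster 3 than in cluster 1, with a median difference of −1.52. Among the genes kept out of clustering 71% were called lower, with a median of −2.18. Xpo1, the exportin of the pre-subunits, was detected in 23 cells, Gltscr2, a nucleolar protein (Nop53) that binds the 5S particle, in 20, and Gtf3a, the transcription factor of the 5S RNA gene, in 17. Gtf3a had a median of 37.0 RPKM in cluster 1 and was detected in 1 of 23 cells of cluster 3. Gltscr2 had a median of 23.7 RPKM in cluster 1 and was listed at 0 in all 23 cells of cluster 3.

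Of 10 genes on the p53 arm, 5 were called lower and 0 higher in cluster 3 than in cluster 1, with a median difference of −1.61, again beside 71% and −2.18 for the genes kept out of clustering. Trp53, which encodes p53, had a median of 87.2 RPKM in cluster 1, where 16 of 18 cells had it, and 2 of 23 cells had it in cluster 3, a difference of −5.44. Bax, a p53 target that promotes cell death, was detected in 19 kept cells with a difference of −3.09. Mdm2, the ligase that the 5S particle binds, was detected in 15 kept cells with a difference of −1.48. The cell cycle inhibitor Cdkn1a, a main target of p53 and named after its values were seen, was detected in 8 kept cells, up to 483 RPKM. Its difference of −1.77 had no call because the sign was not the same in every run code.

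Genes of later assembly steps are given beside the 71% of genes kept out of clustering that were called lower. Of 10 genes for subunit joining and large-subunit maturation, 9 were called lower in cluster 3 than in cluster 1 (median −2.64), among them Eif6, which keeps subunits apart (−3.67), Sbds, which helps release Eif6 (−2.48), and Mrto4 (−3.97). Of 10 genes for small-subunit maturation, 7 were called lower (median −1.57). Bysl was the most often detected of them, in 46 cells, with medians of 63.0, 18.9 and 5.99 RPKM in clusters 1, 2 and 3. The medians of these lists lay between −2.64 and −1.52, beside −2.18 over the genes kept out of clustering and −6.50 over the 5 members.

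The 12 cells that carried markers of other lineages also expressed the members, with a median Hba-a1 of 312 RPKM. Rpl11 was detected in 10 of them, from 0 to 545 RPKM with a median of 282, and was listed at 0 in cells 12 and 54, where Rpl5 stood at 224 and 376 RPKM. The other members were detected in 12 of 12, with medians of 360 RPKM for Rpl5, 739 for Rpl26, 697 for Rpl35a and 1925 for Rps19. Relative to the other ribosomal protein genes Rpl11 had a median of −1.30 ± 0.50 (10 cells), rank 73, and Rpl5 −0.85 ± 0.93 (12 cells), rank 62. Of the 27 cells under the gene minimum, Rpl11 was detected at 1 RPKM in 4 and each other member in 5.

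The genes most like Rpl11 over the 57 cells, by Pearson correlation of log2 levels among 1487 genes detected in at least 50% of cells, were Gm10653 (0.857), Cand2 (0.829), Rps2 (0.828), Set (0.827) and Gm6251 (0.815). For Rpl5 they were Cand2 (0.843), Gm6251 (0.827), Ccdc84 (0.812), Gm10653 (0.812) and Rps21 (0.810). Several of these low-level genes followed a single ribosomal protein gene more closely than they followed the members. Gm10653 correlated with Rps2 at 0.898 with 1.08% of its level, Cand2 and Gm6251 with Rpl32 at 0.917 and 0.941, and Ccdc84 with Rps25 at 0.901. Whether they share reads with those genes was not tested. After subtraction of the mean of other ribosomal protein genes, the closest to Rpl11 were Fam96a (0.500), Ndufa9 (0.462), Ndufs7 (0.438), Myeov2 (0.429) and Set (0.428). For Rpl5 they were Myl12a (0.425), Vamp5 (0.367), Rpl7a (0.367), Eif5a (0.360) and Myl12b (0.355). Rpl5 stood at place 157 by level and 934 after subtraction in the list of Rpl11.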

How the data were processed

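The authors captured single cells on the Fluidigm C1, amplified cDNA with SMART-Seq and prepared Nextera XT libraries, per the labels' protocols, and used TopHat2 2.0.9 and mm9, per the submitters' processing notes. The deposited values are RPKM per transcript, 34899 entries. The counting tool and filters were not given in the sources used here. A gene took its highest transcript in each cell. Values were used as deposited and on the scale log2(RPKM + 1), which understates differences of low genes. Depth was estimated from steps between low RPKM values and tested on simulated data, as were the ratios and differences. Python 3.11.15, pandas 2.3.3 and scikit-learn 1.9.0 were used.

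Cells needed 1000 genes at 1 RPKM, and cells meeting a non-erythroid marker list (neutrophil, monocyte or macrophage, mast cell or basophil, T or NK cell, B cell, megakaryocyte, stroma or endothelium, stem or multipotent cell) were set aside. Of 69 cells with enough genes, these lists were met by 4, 7, 1, 1, 0, 0, 0 and 1 cells in that order. Early progenitor, late progenitor and erythroblast lists described the kept cells. Doublets were not called. Clusters came from 2169 genes by 10 principal components and Ward linkage (3 to 6 clusters, by silhouette), and 2169 other genes gave the background. The silhouette was 0.301 for 3 and for 4 clusters. It was higher, 0.442, for 2 clusters, a number the rule did not allow, with 18 cells low and 39 high in alpha-globin. Clustering on the other 2169 genes gave 4 clusters, with 2 cells in the one lowest in alpha-globin. Members and lists were chosen with earlier results of these data known. Named beside the members were, of the other Diamond-Blackfan ribosomal protein genes, the 2 highest and 2 lowest by ratio, of each other list at most 6 members detected in 25% of kept cells, and for Rpl11 and Rpl5 the 5 most correlated genes. A few further genes and cells were named after their values were seen. No mm9 annotation was used, so coordinates are those of the RefSeq promoter table.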

Additional observations from a re-analysis of the deposited data

How the results depend on the processing

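Of 85 recomputed cluster differences, 74 moved by less than 1 SD over cells, as did all 70 recomputed ratios to other ribosomal protein genes and all 110 between members. This is a loose bound. The SD was 1.29 to 2.09 for the ratios to other ribosomal protein genes and 1.37 to 2.75 for those between members. The Rpl35a ratio stayed within it while going from −0.30 to 1.06. With a pseudocount of 0.1 the difference between the clusters with most and least alpha-globin was −9.43 for Rpl11 and −8.74 for Rpl5, and with a pseudocount of 10 it was −4.79 for Rpl11. With a minimum of 2000 genes, which left 2 cells in each end cluster, it was −3.14 for Rpl11, −1.63 for Rpl26 and −1.90 for Rps19. With no gene minimum it turned to 1.30 for Rpl11, 0.87 for Rpl5, 2.00 for Rpl26, 3.48 for Rpl35a and 3.81 for Rps19, where 23 of the 24 cells low in alpha-globin had fewer than 1000 genes.

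Detection followed the gene minimum. At 500 genes Rpl26 was detected in 71.4% and Rps19 in 78.6% of cells. With no minimum the shares were 52.4% for Rpl11, 54.8% for Rpl5, 63.1% for Rpl26, 64.3% for Rpl35a and 67.9% for Rps19. At 2000 genes Rpl11 was detected in 96.3% and the other members in 100% of 27 cells. In the run code with 17 kept cells, which held 8 of the 18 cells of cluster 1, Rpl11 and Rpl5 were detected in 88.2%, Rpl35a in 94.1% and Rps19 in 100%.

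The median log2 ratio to other ribosomal protein genes stayed within −1.24 to −0.44 for Rpl11, −1.52 to −0.91 for Rpl5 and 1.03 to 1.76 for Rps19 over 14 alternatives each. It changed sign in 3 alternatives for Rpl26 and in 1 for Rpl35a. With clusters held, rescaling each cell to a total of 1000000 moved the median over genes kept out of clustering from −2.18 to −2.49 between clusters 3 and 1, and relative to it Rpl11 moved from −4.63 to −4.82 and Rpl35a from −2.42 to −3.05. The alternatives that left out cells low in erythroblast markers, or took only the member's own subunit as denominator, were chosen after seeing the data. Amplified reads without molecular identifiers limit what an absent value means, and the labels name no replicate samples.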
